A study of Mus musculus with 50 samples.

Results

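The step from 12 h to 24 h of activation was examined in CD8+ T cells of knockout mice, called KO in the labels. Its members are 10 of the 50 libraries of the series: the KO libraries of mice 1 to 5 at 24 h, each compared with the library of the mouse of the same number at 12 h. All animals were 10-week-old naive mice of the strain that the labels spell C567BL/6J, and the KO mice carried a deleted allele that the WT mice did not. Cells were taken from the spleen with magnetic anti-CD8a beads, which enrich but do not sort. They were cultured in RPMI medium with 5% FBS and activated with anti-CD3e on the plate (2 ug/ml) and anti-CD28 in solution (2 ug/ml), the same in both genotypes. The series holds 5 mice of each genotype, each sampled at 0, 2, 6, 12 and 24 h, and WT libraries are used here only as the comparator. Poly(A) RNA was sequenced with a stranded kit as 50 nt single reads.

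Anti-CD3 stands in for antigen at the T cell receptor (TCR) and anti-CD28 for costimulation. Together they first switch on immediate early genes, such as Myc and the Egr and Nr4a families, then cytokine and metabolic genes, and the cell grows before it enters its first S phase. Genes of DNA replication are released when E2F factors are freed from their repressors in late G1, and genes of G2 and mitosis follow through the DREAM and MuvB complexes, which bind a short element called CHR near the start sites of many of them. A naive CD8+ T cell that divides in this way also loses its homing and quiescence genes, among them Klf2 and S1pr1, and gains the granule proteins with which it kills target cells.

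The 10 libraries held 18013206 to 31293872 counts, and libraries of 1 group correlated with Spearman's rho of 0.988 to 0.998. Levels are given in CPM, the count of a gene per library total after scaling between libraries, and are listed for mice 1 to 5 in that order, and means are given ± SD (n = 5 mice). Changes are log2 values fitted with the mouse as a block, a change is called at an adjusted p under 0.05, and "rose" and "fell" are used only of called changes. Each mouse gave cells for both times. The p-values set the change from 12 h to 24 h against its spread over these 5 mice, after level differences between mice are removed. That spread is estimated in part from all genes.

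The 12 h library of mouse 5 stood apart. It held 234 genes at 2-fold or more above all other 12 h libraries of KO, against 1 to 16 in each of the other mice, and 36 of the 56 G2 and mitosis genes were among them. For many genes and lists affected by this library the value without mouse 5 is also given below, but not for all of them. As to cell identity, the 8 CD8 T cell markers summed to 3328 to 3566 CPM at 12 h, and at 24 h to 2711 to 2909.6 CPM. Of these 8, 6 fell and 1 rose. Of 10 immature thymocyte markers, 6 stayed under 1 CPM in all 10 libraries, among them Cd4, Rag1, Rag2 and Ptcra. Others on that list were higher, such as Themis, which reached 128 CPM at 12 h and 147 CPM at 24 h. Of the CD4 and regulatory T cell markers other than Cd4, Zbtb7b, Foxp3 and Cd40lg reached 3.36, 3.92 and 6.82 CPM at 12 h. B cell markers were present at both times, with sums of 753 to 1384 CPM at 12 h that went to 516 to 604 CPM, and 8 of 9 tested fell. Nearly all of this B cell sum was Ighm, with 723 to 1359 and then 493 to 589 CPM. The sum of plasma cell markers was 214 to 332 and then 144 to 167 CPM. Xbp1 (157 to 175, then 119 to 136 CPM) and Jchain (52.1 to 160, then 11.7 to 27.1 CPM) made up most of it. Of 4 plasma cell markers tested 3 fell, and Sdc1 was not called (0.78 ± 0.35, adjusted p = 0.0947). The sums thus rest on few genes. The part of B and plasma cells in the results was not tested, and in bulk RNA fewer cells of a type cannot be told apart from less RNA per cell.

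Most genes moved. Of 11629 genes tested, 7818 (67.2%) were called, 3879 higher at 24 h (33.4%) and 3939 lower (33.9%). A change of at least 2-fold was found for 974 genes that rose (8.38%) and 536 that fell (4.61%), and the 5 values at 12 h and the 5 at 24 h did not overlap for 6129 genes (52.7%). Without mouse 5, 8268 of 11635 genes were called (71.1%), and 7620 of the 7818 calls remained in the same direction. With so large a background, the gene groups below are read by how far their counts and medians lie from these shares and from a median change over all genes near 0 (-0.0090).

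**Figure D1:**
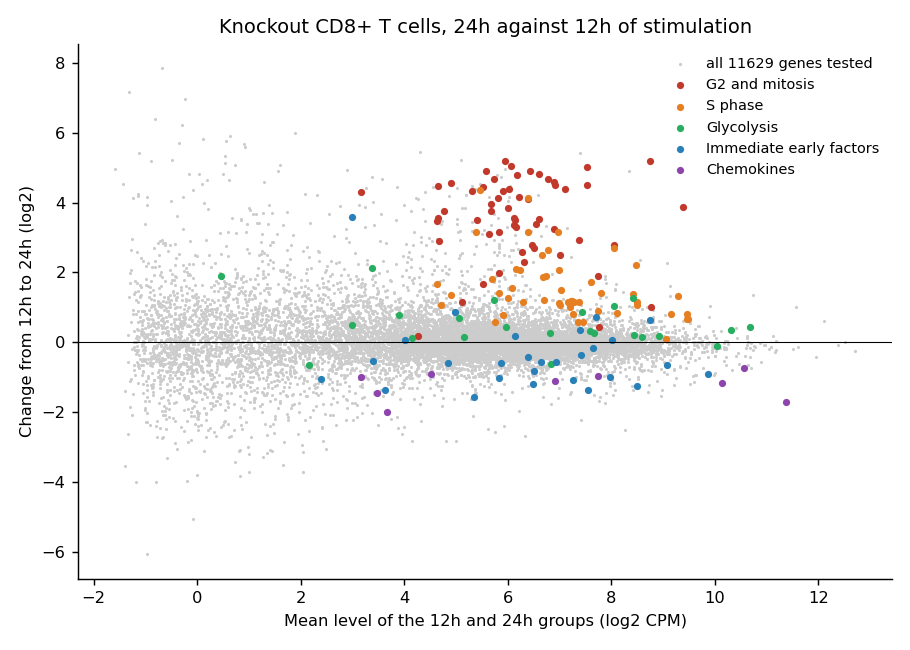
Change from 12 h to 24 h (log2, vertical axis) against the mean level of both groups (log2 CPM, horizontal axis) for the 11629 genes tested (grey), with 5 gene lists in colour. The 56 G2 and mitosis genes lie highest, with a median of 3.76, and the 9 chemokine genes lie below 0.

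The largest rises were in genes of cell division. Of the 56 genes of the G2 and mitosis list, 55 rose and none fell. The median log2 change was 3.76, or 4.19 without mouse 5, and the range with all mice was 0.18 to 5.18. The summed level of the list was 1161, 1161, 1149, 1174 and 2281 CPM at 12 h and 10588, 10235, 10022, 10270.4 and 10569 CPM at 24 h. Mice 1 to 4 were alike at 12 h and mouse 5 was higher, whereas at 24 h all 5 lay close together. At 0 h the same sum was 1854, 1877, 2088, 2607 and 3543 CPM, again highest in mouse 5. These transcripts thus made up a larger share of the counts in cells as isolated than at 12 h in mice 1 to 4. CPM does not measure transcripts per cell.

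Mki67, the proliferation antigen that coats mitotic chromosomes, stood at 12.8, 16.7, 14.9, 13.8 and 119.5 CPM at 12 h and 925, 796, 716, 833 and 879.8 CPM at 24 h. Mouse 5 at 12 h lay far above the other mice, and no value at 12 h reached those at 24 h. The fitted change was 5.18 ± 0.69 (SE, adjusted p = 0.00276), or 36.3-fold, and 5.83 without mouse 5. Top2a, the topoisomerase that untangles replicated chromosomes, had 69.8, 64.9, 60.6, 70.4 and 231 CPM at 12 h and 1257, 1239, 1188, 1224 and 1289 CPM at 24 h. Its change was 3.87 ± 0.38 (SE, adjusted p = 9.59e-04), and again only mouse 5 departed from the others at 12 h. Ccna2, the cyclin of S phase and G2, had 7.10, 5.23, 6.13, 8.03 and 46.6 CPM at 12 h and 370.1, 357, 349, 353 and 355 CPM at 24 h, with a change of 5.03 ± 0.65 (SE, adjusted p = 0.00246) and 5.77 without mouse 5.

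Regulators of mitotic entry and exit moved with them. Plk1, the polo kinase of mitotic entry, changed by 4.78 ± 0.53 (SE, adjusted p = 0.00144), from a range of 2.99 to 16.1 CPM to one of 133 to 145 CPM, and 5.45 without mouse 5. Birc5, the survivin subunit of the chromosomal passenger complex, changed by 4.83 ± 0.56 (SE, adjusted p = 0.00175), and 5.55 without mouse 5. Ube2c, the ubiquitin-conjugating enzyme of the anaphase-promoting complex, changed by 4.89 ± 0.61 (SE, adjusted p = 0.0022), and 5.68 without mouse 5. Spindle genes were similar: Kif2c, a microtubule-depolymerising kinesin, changed by 4.91 ± 0.59, Nusap1, which bundles spindle microtubules, by 5.03 ± 0.43, and Hmmr, a spindle-associated protein, by 5.18 ± 0.56 (5.81, 5.62 and 6.01 without mouse 5, all rises). Among genes chosen by size of change alone, Pclaf, a PCNA-binding factor, changed by 5.42 ± 0.63, Kif14, a kinesin of cytokinesis, by 5.22 ± 0.47, Cdca3 by 4.97 ± 0.47, and E2f8, a repressor of the E2F family, by 4.80 ± 0.69 (6.24, 6.03, 5.61 and 5.78 without mouse 5). Iqgap3, a scaffold protein of dividing cells, stood at 0.481, 0.327, 0.353, 0.422 and 2.70 CPM at 12 h and 41.9, 39.1, 39.4, 37.2 and 36.4 CPM at 24 h, the largest fitted rise among the genes of at least 20 CPM at 5.46 ± 0.54 (6.63 without mouse 5).

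Not all members of the list were so low at 12 h. Cenpa, the histone H3 variant of the centromere, had 26.2, 27.3, 22.3, 28.5 and 31.5 CPM at 12 h and 134, 123, 129.7, 131 and 139 CPM at 24 h, a change of 2.29 ± 0.063 (SE, adjusted p = 9.20e-09). Cdc25b, the phosphatase that activates CDK1, changed by 1.68 ± 0.080 (SE, adjusted p = 1.62e-07), Smc4, a condensin subunit, by 1.00 ± 0.042, and Ube2s, which extends ubiquitin chains for the anaphase-promoting complex, by 1.15 ± 0.064. For Cenpa, Cdc25b and Ube2s the value of mouse 5 at 12 h exceeded the highest of the others by far less than for Mki67. Bub3, a spindle checkpoint protein, rose least among these, by 0.45 ± 0.036, with 192, 175, 182, 184 and 189 CPM at 12 h and 244, 246, 247, 249.8 and 262 CPM at 24 h. Pttg1, the securin gene, was the 1 member not called.

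**Figure D2:**
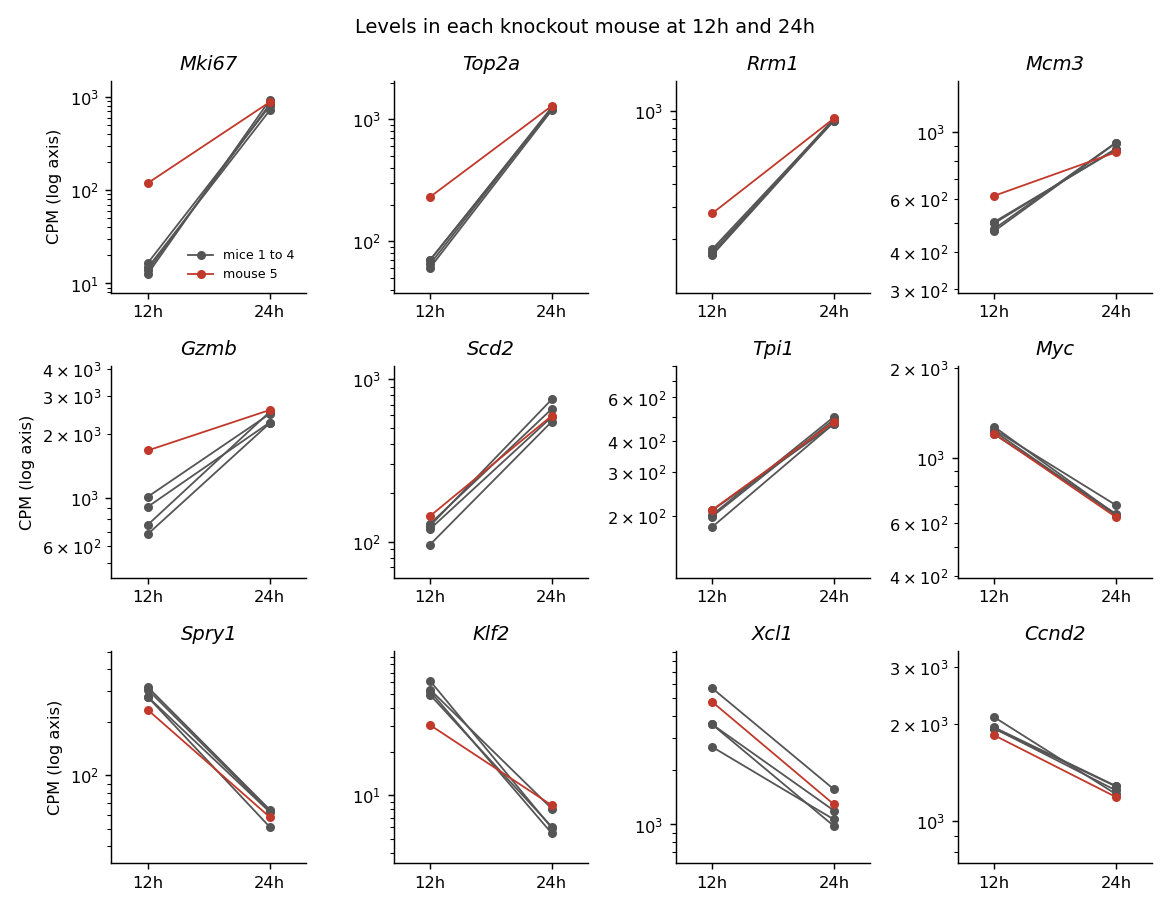
Levels of 12 genes in each KO mouse at 12 h and 24 h (CPM, log axis), with mouse 5 in red. Mouse 5 starts above the other mice at 12 h for Mki67, Top2a, Rrm1, Mcm3 and Gzmb and joins them at 24 h, while for Myc and Tpi1 it lies among them.

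DNA replication genes rose almost as a whole, but by less. In the S phase list 49 of 50 genes rose and none fell, with a median of 1.23, and without mouse 5 all 50 rose. The MCM helicase, which opens the origins, was already present at 12 h: Mcm6 had 545, 540.1, 512, 544 and 606 CPM at 12 h and 852, 926, 892, 846 and 838 CPM at 24 h, a change of 0.67 ± 0.053 (SE, adjusted p = 1.73e-06), and Mcm3 had 503, 477, 469, 497 and 614 CPM and then 874, 922, 919, 880.3 and 856 CPM, a change of 0.81 ± 0.071 (SE, adjusted p = 1.24e-05). Mcm5 changed by 0.67 ± 0.056, and Mcm2 was the member not called with all mice. Rpa1, which coats single-stranded DNA, changed by 1.39 ± 0.054 (SE, adjusted p = 3.11e-08). Rfc2, part of the clamp loader, changed by 1.2 ± 0.037, Pola2, a subunit of the primase-polymerase, by 1.17 ± 0.047, and Slbp, which binds the stem-loop of histone mRNAs, by 1.14 ± 0.047. The sum of the list was 6159.8, 5848, 5723, 6021 and 7379 CPM at 12 h and 13422, 14003, 13772, 13507 and 13457 CPM at 24 h, so all 5 mice rose and the groups did not overlap.

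Enzymes that make DNA precursors followed the same division. Of 28 nucleotide synthesis genes 21 rose and 2 fell. Both subunits of ribonucleotide reductase, which makes deoxynucleotides, rose: Rrm2, the regulated subunit, had 16.2, 11.9, 11.9, 14.7 and 85.0 CPM at 12 h and 664, 595, 609, 601 and 619 CPM at 24 h, a change of 4.92 ± 0.61 (SE, adjusted p = 0.00214), or 5.52 without mouse 5, and Rrm1, the large subunit, changed by 2.27 ± 0.13 (SE, adjusted p = 2.30e-05). Tk1, thymidine kinase, changed by 2.92 ± 0.12 (SE, adjusted p = 1.15e-06), and Dut, which removes dUTP, by 1.90 ± 0.082 (SE, adjusted p = 5.18e-07). The falls were small and in guanine nucleotide synthesis: Impdh1 and Impdh2, the IMP dehydrogenases, changed by -0.31 ± 0.042 and -0.15 ± 0.037. Cad, which starts pyrimidine synthesis, was not called (0.11 ± 0.070, adjusted p = 0.187) and became called as a rise without mouse 5 (0.18, adjusted p = 0.0113).

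The G1 regulators split. Of 20 tested, 11 rose and 4 fell. Ccnd3, a D cyclin, had 90.0, 86.6, 85.5, 86.6 and 97.4 CPM at 12 h and 259, 239, 249, 263 and 234 CPM at 24 h, a change of 1.49 ± 0.052 (SE, adjusted p = 1.96e-08), whereas Ccnd2, the D cyclin of early activation, had 1937, 2098, 1951, 1933 and 1844 CPM at 12 h and 1245, 1212, 1284, 1281 and 1187 CPM at 24 h, a change of -0.64 ± 0.041 (SE, adjusted p = 4.77e-07). Both cyclins thus moved in opposite directions in every mouse. Cdk2 rose by 1.18 ± 0.049, and the CDK4 and CDK6 inhibitors Cdkn2c and Cdkn2d rose by 2.46 ± 0.13 and 1.6 ± 0.069. Cdk6 fell slightly (-0.18 ± 0.041), Ccnd1 fell from a level of 0.481 to 2.74 CPM, where mouse 5 was again highest (-1.32 ± 0.35, adjusted p = 0.00691), and Cdk4 was not called (0.07 ± 0.040, adjusted p = 0.149).

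Promoter sequences of 4 genes are shown. Mki67, Top2a and Mcm6 are from lists that move together, and letters bound by the factors named above can be found in them. Ifit3 is from the interferon-stimulated list, which did not move as 1 group. They are the 250 bases before the start site from RefSeq on GRCm38.p6, read 5′ to 3′ on the strand of the gene, and capitals mark matches on either strand to the letters searched: TTTGAA or TTCGAA for CHR, CCAAT for the CCAAT box, and TTTGGCGC, TTTCCCGC, TTTGCCGC or TTTCGCGC for E2F. In Ifit3 they mark the interferon element ISRE. Mki67 (chr7:135716380-135716629, minus strand) holds 2 CHR matches, 116 and 98 bases before the start, and 3 CCAAT boxes. Top2a (chr11:99024190-99024439, minus strand) holds 4 CHR matches and 6 CCAAT boxes. Mcm6 (chr1:128359706-128359955, minus strand) holds 3 E2F matches, at 110, 106 and 47 bases before the start, of which the first pair overlap on opposite strands, and 2 CCAAT boxes. Ifit3 (chr19:34583279-34583528, plus strand), whose fall is described further on, holds 2 ISRE matches, at 156 and 122 bases before the start.
Mki67: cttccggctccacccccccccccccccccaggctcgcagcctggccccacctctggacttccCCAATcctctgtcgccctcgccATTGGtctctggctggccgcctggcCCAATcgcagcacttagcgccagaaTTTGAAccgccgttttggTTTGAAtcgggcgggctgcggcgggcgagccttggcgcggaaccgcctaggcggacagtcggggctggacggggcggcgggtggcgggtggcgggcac
Top2a: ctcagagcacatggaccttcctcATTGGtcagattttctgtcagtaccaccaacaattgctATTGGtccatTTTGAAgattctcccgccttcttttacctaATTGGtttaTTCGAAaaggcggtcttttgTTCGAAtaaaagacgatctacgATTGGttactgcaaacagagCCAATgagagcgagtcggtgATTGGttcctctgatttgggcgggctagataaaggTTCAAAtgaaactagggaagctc
Mcm6: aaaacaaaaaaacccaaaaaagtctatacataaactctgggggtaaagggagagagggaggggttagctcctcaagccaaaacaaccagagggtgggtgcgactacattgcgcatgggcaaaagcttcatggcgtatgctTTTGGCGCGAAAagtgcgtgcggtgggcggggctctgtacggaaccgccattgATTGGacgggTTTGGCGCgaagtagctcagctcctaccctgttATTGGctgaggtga
Ifit3: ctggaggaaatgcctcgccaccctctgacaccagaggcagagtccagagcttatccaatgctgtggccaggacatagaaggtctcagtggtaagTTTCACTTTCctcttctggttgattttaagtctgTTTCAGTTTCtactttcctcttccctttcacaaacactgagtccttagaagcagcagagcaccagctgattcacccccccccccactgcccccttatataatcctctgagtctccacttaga

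Across the lists, windows of 250 bases before to 50 after the start were searched. An E2F match was found in 38% of 50 promoters of the S phase list (41 of 50 genes had a promoter in the table), in 10% of 50 promoters of the G2 and mitosis list (47 of 56 genes) and in 2.26% of all 32851 promoters. A CHR match was found in 82% of the G2 and mitosis promoters, 18% of the S phase promoters and 19.2% of all, and a CCAAT box in 74%, 60% and 37.4%. Among promoters of the genes tested the shares were 4.11% for E2F, 13.8% for CHR and 38% for the CCAAT box. In the 250 bases before the start alone, the window printed above, E2F matches were found in 22% of S phase promoters and 3.42% of those of all genes tested, and CHR matches in 46% of G2 and mitosis promoters and 12.2% of those of all genes tested. High shares were not limited to cell cycle lists. A CCAAT box was found in 74.1% of 27 promoters of the sterol and fatty acid list (22 of 33 genes). A CHR match was found in 34.6% of 26 promoters of the interferon-stimulated list (23 of 32 genes). An ISRE match was found in 65.4% of the interferon-stimulated promoters, 3.15% of those of the genes tested and 3.44% of all promoters. A match describes letters and is not a site of binding. A promoter was available for 78.6% of the genes tested, so all genes that rose were not compared with all that fell. The list shares likewise cover only the members with a promoter.

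The immediate early programme receded. Of 28 immediate early factors 20 fell and 6 rose, with a median of -0.57. Myc, the growth regulator, had 1225, 1198, 1268, 1240.0 and 1202 CPM at 12 h and 638, 646, 643, 691 and 630.1 CPM at 24 h, all values at 24 h below all at 12 h, and a change of -0.91 ± 0.038 (SE, adjusted p = 3.80e-08). Egr2, an early growth response factor, had 289.8, 256, 276, 257 and 275 CPM at 12 h and 112, 108, 95.8, 108 and 104 CPM at 24 h, a change of -1.35 ± 0.047 (SE, adjusted p = 1.96e-08). Nr4a1, the orphan receptor that reports TCR signal strength, changed by -1.24 ± 0.047 (SE, adjusted p = 2.68e-08), and Nr4a3, its relative, by -0.66 ± 0.069. The AP-1 subunits divided: Fosl1 and Fosl2 fell (-1.58 ± 0.072 and -1.02 ± 0.054), while Jund, Batf and Batf3 rose (0.65 ± 0.054, 0.86 ± 0.056 and 3.59 ± 0.27). Batf3, a partner of Jun and Irf4, went from a range of 0.374 to 2.11 CPM to one of 13.8 to 16.3 CPM, and Klf6, a zinc finger factor, also rose (0.71 ± 0.063).

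NF-kB genes fell without exception among the called ones: 14 of 17 fell and none rose (median -0.46). Rel, the subunit that TCR signals induce, had 536, 476, 469, 455 and 555 CPM at 12 h and 294, 276, 265, 283 and 279.5 CPM at 24 h, a change of -0.82 ± 0.048 (SE, adjusted p = 2.53e-07). Rela and Nfkb1, the other main subunits, changed by -0.67 ± 0.043 and -0.66 ± 0.054. Tnfaip3, the deubiquitinase A20 and an inhibitor of the pathway, changed by -1.0 ± 0.053 (SE, adjusted p = 1.68e-07). Cflar, a member of the list that blocks caspase 8, changed by -0.98 ± 0.041 (SE, adjusted p = 3.85e-08).

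Of 18 feedback genes of MAPK and cytokine signalling, 12 fell and 5 rose. Spry1, a Sprouty inhibitor of receptor signalling to Ras, had 316, 279, 278, 306 and 235 CPM at 12 h and 64.0, 62.1, 51.1, 62.7 and 58.1 CPM at 24 h, a fall of 4.7-fold (-2.23 ± 0.056, adjusted p = 5.85e-09). The ERK phosphatases Dusp6 and Dusp2 fell by 1.01 and 1.00 on the log2 scale. Socs2, a suppressor of cytokine signalling induced by STAT5, rose in all 5 mice, with 6.34, 7.19, 6.70, 7.18 and 9.23 CPM at 12 h and 33.9, 39.9, 38.9, 36.3 and 42.2 CPM at 24 h and a change of 2.39 ± 0.070 (SE, adjusted p = 9.96e-09). Dusp1, a phosphatase of p38 and JNK, rose by 0.62 ± 0.11 at a low level.

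Genes of the TCR machinery also fell. In the list of the TCR complex and signalling 19 of 24 genes fell and 2 rose (median -0.46). Zap70, the kinase recruited to the receptor, had 487, 506, 494, 534 and 444 CPM at 12 h and 246, 245, 223, 242 and 235 CPM at 24 h, a change of -1.04 ± 0.041 (SE, adjusted p = 3.11e-08). Fyn, a Src family kinase, changed by -0.81 ± 0.034, and the negative regulators Ptpn22, Cd5 and Cblb by -1.38 ± 0.042, -0.94 ± 0.042 and -0.94 ± 0.046. Themis, a TCR signalling adaptor, was 1 of the 2 that rose (0.52 ± 0.091).

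Effector products went different ways. All 9 chemokine genes fell (median -1.12, or -0.88 without mouse 5). Xcl1, which draws cross-presenting dendritic cells, had 5679, 2688, 3577, 3580.5 and 4772 CPM at 12 h and 1566, 1066, 980.4, 1194 and 1293 CPM at 24 h, a change of -1.70 ± 0.089 (SE, adjusted p = 1.49e-06), and mouse 2 was lowest at 12 h. Ccl3 and Ccl4, the MIP-1 chemokines, changed by -0.74 ± 0.17 (SE, adjusted p = 0.0141) and -1.17 ± 0.11 (SE, adjusted p = 8.55e-05), and Ccl9 by -0.95 ± 0.086. The interferon-induced chemokines Cxcl9 and Cxcl10, at 13.9 to 39.7 and 12.0 to 24.6 CPM at 12 h, changed by -2.01 ± 0.12 and -1.45 ± 0.14.

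Among the secreted cytokines 13 of 20 genes could be tested, of which 4 fell and 1 rose, and without mouse 5 3 fell and 4 rose. The median of the list rests on mouse 5, at -0.34 with it and 0.0093 without it. Tnf had 426, 305, 362, 319 and 416 CPM at 12 h and 165, 153, 144, 177 and 172 CPM at 24 h, a change of -1.16 ± 0.084 (SE, adjusted p = 1.09e-05), and Ltb, lymphotoxin beta, changed by -0.61 ± 0.074 (SE, adjusted p = 1.25e-04). Osm, oncostatin M, rose (0.97 ± 0.090, adjusted p = 6.88e-06). Ifng, interferon gamma, varied more between mice than between times: it stood at 2511, 414, 675, 1116 and 1504 CPM at 12 h and 1262, 535, 582, 839.7 and 881 CPM at 24 h, and the change of -0.40 ± 0.23 (SE, adjusted p = 0.189) was not called with all mice but was without mouse 2 (-0.59, adjusted p = 0.0238). Lta was not called (0.11 ± 0.067, adjusted p = 0.185) and was without mouse 5 (0.16, adjusted p = 0.0298).

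The granule list had 4 genes that rose and 8 that fell of 17 tested. Gzmb, granzyme B, had 1019, 683, 915, 755 and 1673 CPM at 12 h and 2474, 2238, 2255, 2526 and 2579 CPM at 24 h, a change of 1.34 ± 0.20 (SE, adjusted p = 0.00294). Mouse 5 was highest at 12 h and the groups did not overlap. Srgn, the proteoglycan that packs granzymes, fell (-1.23 ± 0.047, adjusted p = 2.68e-08), as did Nkg7, a protein of granule release (-0.78 ± 0.066, adjusted p = 7.18e-06). Gzmc and Gzmm, at 5.37 to 9.06 and 2.30 to 6.26 CPM at 12 h, changed by -1.16 ± 0.14 and -1.46 ± 0.17, and Fasl, the ligand of the death receptor Fas, by -1.17 ± 0.14.

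Inhibitory receptors mostly fell, 9 of 14 tested against 2 that rose. Cd274, which encodes PD-L1, had 304, 353, 292, 307 and 241 CPM at 12 h and 96.4, 106, 97.5, 115 and 109 CPM at 24 h, a change of -1.5 ± 0.081 (SE, adjusted p = 1.76e-06). Pdcd1, its receptor PD-1, changed by -0.57 ± 0.053, and Lag3 by -0.58 ± 0.045. Ctla4, which competes with CD28 for its ligands, rose from 13.0, 32.5, 17.4, 25.7 and 12.4 CPM to 46.8, 88.5, 63.2, 67.7 and 72.3 CPM (1.82 ± 0.18, adjusted p = 3.75e-04), and Cd200 rose by 0.66 ± 0.067. Tox2, a factor that the list includes with the receptors, fell to 0.0568 to 0.338 CPM (-3.12 ± 0.29).

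Costimulatory genes of the TNF and SLAM families divided evenly, 9 rising and 9 falling of 21. Tnfrsf4, the receptor OX40, had 35.3, 31.8, 34.7, 35.1 and 61.4 CPM at 12 h and 106, 104, 105, 111 and 112 CPM at 24 h, a change of 1.49 ± 0.14 (SE, adjusted p = 2.25e-04), with mouse 5 highest at 12 h. Tnfrsf9, the receptor 4-1BB, had 1274, 910.1, 952, 999 and 1212 CPM at 12 h and 509, 493, 413, 511 and 498 CPM at 24 h, a change of -1.12 ± 0.070 (SE, adjusted p = 1.26e-06). Tnfrsf8, the receptor CD30, rose from a range of 0.327 to 2.70 CPM to one of 9.94 to 14.8 CPM, whereas Tnfsf8, its ligand, fell from a range of 409 to 582 CPM to one of 162 to 231 CPM. Cd69, the early activation marker, and Slamf1 fell by 0.96 and 1.47 on the log2 scale, and Cd70 rose at a low level (1.91 ± 0.21).

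Of 22 cytokine receptor genes 11 fell and 5 rose. The chains of the IL-2 receptor moved by little: Il2ra, the alpha chain, changed by -0.24 ± 0.045 (SE, adjusted p = 7.96e-04), Il2rb, the beta chain, by 0.29 ± 0.043 (SE, adjusted p = 1.77e-04), and Il2rg, the common gamma chain, by -0.50 ± 0.043 (SE, adjusted p = 3.84e-06). Il7r, the receptor of the survival cytokine IL-7, had 72.3, 55.1, 67.0, 54.8 and 58.6 CPM at 12 h and 29.7, 24.6, 31.6, 31.6 and 35.1 CPM at 24 h, a change of -1.01 ± 0.080 (SE, adjusted p = 4.41e-06). Il6ra and Tgfbr2 fell (-1.26 ± 0.068 and -0.78 ± 0.049), and Il12rb1 rose (0.48 ± 0.036).

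In the list of naive and quiescence genes 19 of 24 fell and 2 rose. Klf2, which keeps T cells quiescent and drives S1pr1, had 49.2, 61.5, 52.1, 53.6 and 30.5 CPM at 12 h and 6.04, 5.93, 5.44, 8.07 and 8.50 CPM at 24 h, a change of -2.83 ± 0.25 (SE, adjusted p = 2.89e-04), with mouse 5 lowest at 12 h. S1pr1, the receptor for leaving lymphoid organs, had 43.7, 44.3, 44.9, 37.6 and 36.5 CPM at 12 h and 12.0, 10.7, 10.3, 12.8 and 12.7 CPM at 24 h, a change of -1.81 ± 0.093 (SE, adjusted p = 2.05e-07). Over the time course its mean went from 532 ± 117 CPM at 0 h to 664 ± 160.4, 78.9 ± 17.1, 41.4 ± 4.00 and 11.7 ± 1.14 CPM. Ccr7, the lymph node homing receptor, changed by -0.79 ± 0.055, and its level at 24 h was near that at 0 h (418 ± 91.3, 751 ± 76.3 and 431 ± 5.59 CPM at 0, 12 and 24 h). The change was -0.84 ± 0.042 for Ets1, a factor of resting T cells, while Dapl1, a gene of naive T cells, rose (1.41 ± 0.071) from a range of 23.6 to 33.4 CPM to one of 70.0 to 85.6 CPM, still below its 211 ± 52.4 CPM at 0 h.

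Of 19 homing and adhesion genes 9 fell and 5 rose. Cxcr6 and Cxcr4, chemokine receptors of tissue and marrow homing, fell (-1.45 ± 0.067 and -1.70 ± 0.13). Ccr4 rose from a range of 8.57 to 21.3 CPM to one of 47.6 to 61.8 CPM (2.04 ± 0.23), and Itgb1, the beta 1 integrin, rose in each mouse (1.01 ± 0.041, adjusted p = 3.11e-08).

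Of 24 effector transcription factors tested 8 fell, a share of 33.3% that is near the 33.9% of all genes, and 5 rose. Without mouse 5 9 fell and 8 rose, and the median went from -0.10 to 0.024. Irf4, which scales with TCR signal and supports expansion, had 1634, 1830.5, 1612, 1655 and 1473 CPM at 12 h and 873, 920.2, 964, 967 and 985 CPM at 24 h, a change of -0.79 ± 0.055 (SE, adjusted p = 8.24e-07). Zeb2 of terminal effectors, Bcl6 of memory precursors and Ikzf3 (Aiolos) changed by -1.37 ± 0.079, -1.59 ± 0.13 and -0.83 ± 0.053. Tbx21 (T-bet), Irf8 and Runx3 rose by small amounts (0.18 ± 0.042, 0.25 ± 0.046 and 0.19 ± 0.042), and the 5 values of Tbx21 overlapped between the times.

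**Figure D3:**
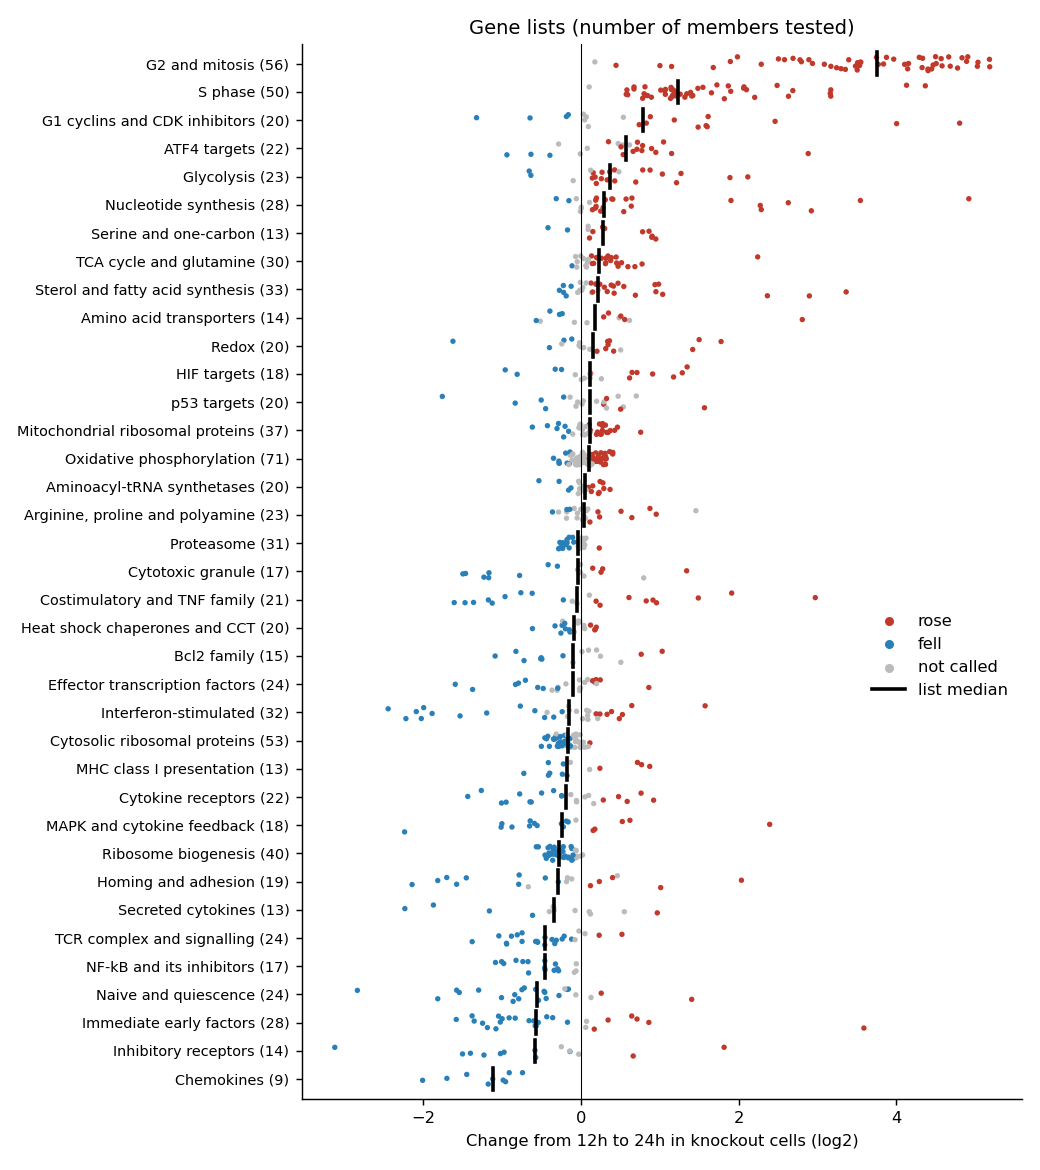
Change from 12 h to 24 h (log2) of each tested member of the 37 gene lists, red where it rose, blue where it fell and grey where not called, with the list median as a black bar. The G2 and mitosis list lies farthest right at 3.76 and the chemokines farthest left at -1.12, and most list medians lie near 0.

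Interferon-stimulated genes did not move as 1 group: 13 of 32 fell and 8 rose. Ifit3, whose promoter is printed above, had 8.86, 7.52, 8.11, 7.60 and 12.7 CPM at 12 h and 1.35, 1.32, 1.16, 2.50 and 1.98 CPM at 24 h, a fall of 5.43-fold (-2.44 ± 0.18, adjusted p = 1.24e-06), and its relative Ifit2 rose (0.53 ± 0.069, adjusted p = 6.63e-05). The Ifit genes resemble each other in sequence, so their counts may share reads. Irf7, the factor that amplifies interferon responses, had 17.1, 13.7, 13.7, 13.9 and 25.7 CPM at 12 h and 3.00, 4.19, 3.70, 5.28 and 4.11 CPM at 24 h, a change of -2.02 ± 0.19 (SE, adjusted p = 3.04e-05), with mouse 5 highest at 12 h. Slfn5 and Rtp4 fell (-2.22 ± 0.16 and -1.99 ± 0.21) and Mx1, an antiviral GTPase, rose at a low level (1.58 ± 0.31).

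In MHC class I presentation, chains and the immunoproteasome parted, with 7 genes falling and 4 rising of 13. H2-K1, a class I heavy chain, had 2067, 2126, 2255, 2123 and 1817 CPM at 12 h and 1209, 1291, 1249, 1239 and 1258 CPM at 24 h, a change of -0.72 ± 0.047 (SE, adjusted p = 5.03e-07). H2-D1, another heavy chain whose reads may be shared with H2-K1, changed by -0.39 ± 0.039 and B2m, the light chain, by -0.41 ± 0.048. The 3 catalytic subunits of the immunoproteasome, Psmb8, Psmb9 and Psmb10, rose by 0.72 ± 0.039, 0.77 ± 0.041 and 0.87 ± 0.078. The general proteasome list had 15 falls (5 in a fit of all 25 KO libraries) and 1 rise of 31, with a median of -0.04.

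Glycolysis genes rose: 18 of 23, with 2 falls and a median of 0.37. Tpi1, triosephosphate isomerase, had 211, 181, 202, 199 and 212 CPM at 12 h and 469, 471, 501, 489 and 478 CPM at 24 h, a change of 1.27 ± 0.045 (SE, adjusted p = 1.96e-08). Eno1, enolase, changed by 1.03 ± 0.037 (SE, adjusted p = 2.06e-08), and Ldha and Pkm, the enzymes at the end of the pathway, by 0.43 ± 0.045 and 0.37 ± 0.042. Slc16a3, a lactate exporter, went from a range of 3.04 to 4.41 CPM to one of 15.6 to 18.5 CPM (2.12 ± 0.11). Pfkfb3, which makes the activator of phosphofructokinase, fell (-0.63 ± 0.044, adjusted p = 7.71e-07). HIF targets had 8 rises and 4 falls of 18.

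Mitochondrial genes moved by less. In the TCA cycle and glutamine list 20 of 30 rose and 1 fell (median 0.23): Got2, the mitochondrial aspartate aminotransferase, changed by 0.69 ± 0.034 (SE, adjusted p = 9.84e-08), Idh2, isocitrate dehydrogenase, by 0.78 ± 0.042 (SE, adjusted p = 1.63e-07), and Cs, citrate synthase, by 0.45 ± 0.035 (SE, adjusted p = 1.71e-06). Of 71 oxidative phosphorylation genes 31 rose and 8 fell, and the median was 0.10. That count of falls depended on which mice entered, from 1 without mouse 1 to 13 without mouse 5, and in a fit of all 25 KO libraries 14 rose and 1 fell. Uqcr10, a subunit of complex III, changed by 0.41 ± 0.046 (SE, adjusted p = 2.40e-05). Mitochondrial ribosomal proteins had 18 rises and 7 falls of 37.

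Genes for making ribosomes fell by small amounts. Of 40 ribosome biogenesis genes 34 fell and none rose (median -0.27). Nop56, a box C/D snoRNP protein, had 690.0, 632, 669, 656 and 649 CPM at 12 h and 485, 484, 487, 502 and 519 CPM at 24 h, a change of -0.40 ± 0.039 (SE, adjusted p = 7.17e-06), and Ddx10, an RNA helicase, changed by -0.56 ± 0.035 (SE, adjusted p = 3.67e-07). Ncl, nucleolin, was not called (-0.069 ± 0.045, adjusted p = 0.202). Of 53 cytosolic ribosomal protein genes 30 fell (11 in a fit of all 25 KO libraries) and 1 rose (median -0.17), with Rps24 at -0.46 ± 0.038 and Rpl8 at -0.29 ± 0.047. Without mouse 5, 37 fell and 0 rose (median -0.22).

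Amino acid genes showed rises in serine synthesis and fewer calls in arginine metabolism. Phgdh and Psat1, the first enzymes of serine synthesis, changed by 0.78 ± 0.053 (SE, adjusted p = 6.42e-07) and 0.95 ± 0.058 (SE, adjusted p = 5.19e-07), and the serine and one-carbon list had 9 rises and 2 falls of 13. Among 22 tested ATF4 targets 13 rose and 3 fell: Ppp1r15a and Ddit3, which act in the stress response, changed by -0.94 ± 0.060 and -0.63 ± 0.075, and Atf4 was not called (0.082 ± 0.046, adjusted p = 0.133), though it was without mouse 1 (0.13, adjusted p = 0.0149). In the list of arginine, proline and polyamine metabolism 7 of 23 tested rose, 3 fell and 13 were not called. Oat, ornithine aminotransferase, had 95.7, 85.0, 85.0, 86.5 and 100.3 CPM at 12 h and 187, 173, 175, 163 and 174 CPM at 24 h, a change of 0.96 ± 0.045 (SE, adjusted p = 7.08e-08), Ass1, argininosuccinate synthase, changed by 0.65 ± 0.083, and Aldh18a1, which starts proline synthesis, by 0.51 ± 0.038. Of the transporters, Slc7a1, the cationic amino acid carrier, was not called (-0.082 ± 0.056, adjusted p = 0.22), Slc7a5, the large neutral carrier, changed by 0.35 ± 0.052, and Slc1a5, a glutamine carrier, by -0.56 ± 0.036. Slc43a3, a purine nucleobase carrier filed with the transporters, rose 7.0-fold, with 12.8, 11.7, 13.0, 13.9 and 20.3 CPM at 12 h and 101, 99.0, 101, 97.2 and 95.2 CPM at 24 h.

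Of 33 genes of sterol and fatty acid synthesis 20 rose and 5 fell (3 without mouse 1, 2 or 5). Scd2, a stearoyl-CoA desaturase, had 96.2, 129, 126, 120.0 and 144 CPM at 12 h and 549.9, 657, 753, 587 and 597 CPM at 24 h, a change of 2.37 ± 0.078 (SE, adjusted p = 8.18e-08). Dhcr7, the last enzyme of cholesterol synthesis, changed by 1.04 ± 0.064 (SE, adjusted p = 3.64e-07). Fasn, fatty acid synthase, changed by -0.19 ± 0.063 (SE, adjusted p = 0.0249), and this call was lost without mouse 2 (-0.18, adjusted p = 0.0718).

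Among stress and survival genes, Hspa5, the chaperone BiP of the endoplasmic reticulum, had 1916, 1546, 1658, 1568 and 1895 CPM at 12 h and 1099.5, 1107, 1093, 1082 and 1175 CPM at 24 h, a change of -0.61 ± 0.051 (SE, adjusted p = 2.70e-06), and 8 of 20 chaperone genes fell and 4 rose. Of 15 tested Bcl2 family genes 7 fell and 2 rose, and without mouse 5 8 fell and 6 rose. Bcl2l11 (Bim), which kills, and Bcl2, which protects, both fell (-1.09 ± 0.053, adjusted p = 9.99e-08 and -0.49 ± 0.045, adjusted p = 5.55e-06), and Bad rose (1.03 ± 0.078). Of 20 tested p53 targets 4 rose and 5 fell (8 and 5 without mouse 5), with Trp53inp1 at -1.76 ± 0.15 and Perp at 1.57 ± 0.13. Redox genes had 9 rises and 4 falls of 20: Gpx4, which reduces lipid peroxides, Prdx4 and Glrx rose (1.42 ± 0.070, 1.78 ± 0.10 and 1.5 ± 0.075). Srxn1, sulfiredoxin, fell from 43.2, 10.2, 16.3, 15.2 and 29.3 to 13.6, 4.01, 5.90, 6.08 and 6.18 CPM (-1.62 ± 0.13, adjusted p = 6.39e-06).

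Several of the largest falls were in genes of B and plasma cells. Igkc, the kappa constant region, had 627, 335, 541, 625 and 492 CPM at 12 h and 76.2, 68.8, 72.4, 129.5 and 119.8 CPM at 24 h, a change of -2.50 ± 0.19 (SE, adjusted p = 2.37e-04). Ighg2b and Jchain, the J chain of secreted antibodies, changed by -2.82 ± 0.24 (SE, adjusted p = 2.60e-04) and -2.41 ± 0.21 (SE, adjusted p = 3.85e-04). Immunoglobulin genes share sequence, so reads may have been assigned among them. The B cell and plasma cell marker sums given above were lower at 24 h, but rest mostly on Ighm, Xbp1 and Jchain itself. The part of B and plasma cells in these falls was not tested. Other large falls were in Tcp11l2 (23.4, 26.5, 26.2, 24.4 and 19.0 CPM at 12 h and 5.91, 5.38, 5.19, 4.94 and 5.31 CPM at 24 h, a change of -2.14 ± 0.091, adjusted p = 4.05e-08), in Slc15a2, a peptide transporter that was low in mouse 4 at both times (-2.20 ± 0.26), and in Lilr4b, a leukocyte Ig-like receptor with a near-identical relative (-2.47 ± 0.17).

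Seen over all 5 times, the step holds genes at different points of their course. Myc had its highest mean at 6 h and lower means at 12 h and 24 h, with 155 ± 24.1, 387 ± 132, 1547 ± 262, 1227 ± 28.9 and 649.7 ± 24.0 CPM. Spry1 went from 0.630 ± 0.397 CPM at 0 h to 388 ± 97.8 CPM at 6 h, 283 ± 31.5 at 12 h and 59.6 ± 5.25 at 24 h. Mki67 was above its 12 h mean already at 0 h (142 ± 87.3 CPM), and the mouse 5 library was its highest at 0, 2, 6 and 12 h. Socs2, by contrast, was under 3 CPM on average to 6 h (2.41 ± 1.37 CPM) and reached 38.2 ± 3.23 CPM at 24 h. Gzmb had its highest mean at 24 h, with 161 ± 92.0 CPM at 6 h, 1009 ± 394 at 12 h and 2414 ± 158 at 24 h. These courses are descriptions and were not tested between the other times.

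**Figure D4:**
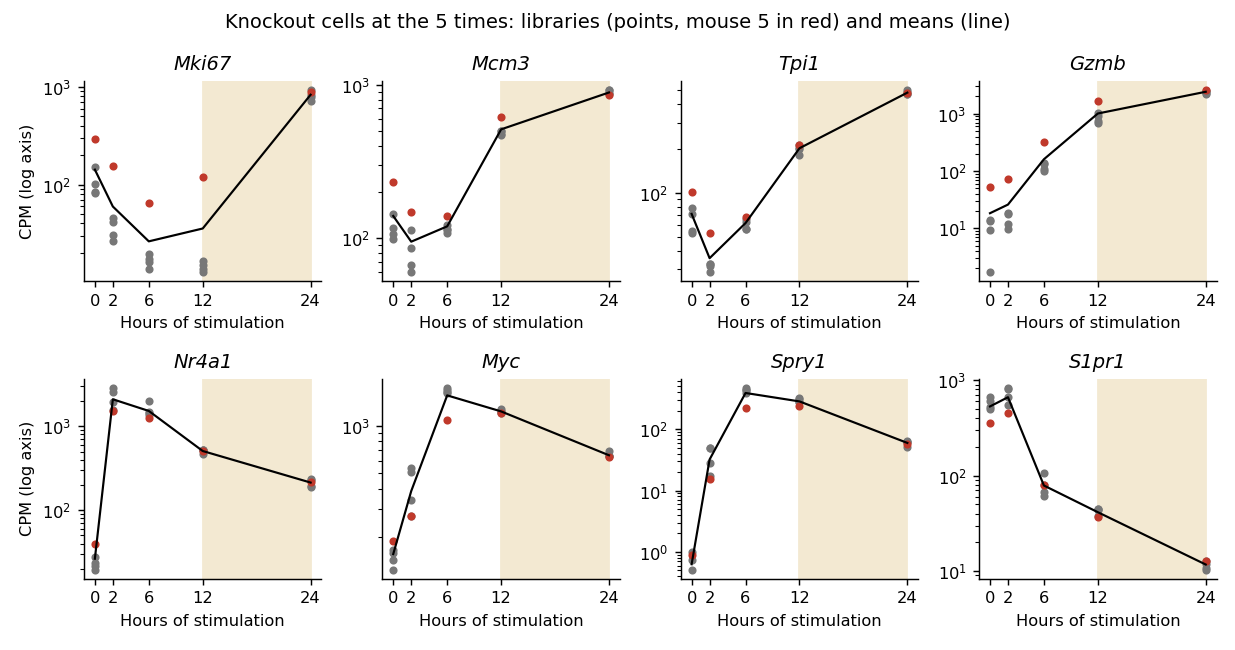
Levels of 8 genes in KO cells at 0, 2, 6, 12 and 24 h (CPM, log axis), points for libraries, with mouse 5 in red, and lines for the means of 5 mice; the shaded span is the step from 12 h to 24 h. Myc, Nr4a1 and Spry1 fall across the span from earlier highs, and Mki67 rises to 829.9 ± 80.2 CPM.

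The same step in WT cells was set beside that in KO cells to ask which changes differed between the genotypes. WT mice 1 and 4 stood apart, with G2 and mitosis sums of 5247, 1352, 1262, 3531 and 1344 CPM at 12 h over WT mice 1 to 5, so counts and differences between the genotypes are given with all mice and with WT mice 2, 3 and 5. In WT, 5321 of 11513 genes were called (46.2%) with all mice, 23.5% as rises and 22.8% as falls, and 8073 of 11630 (69.4%) with mice 2, 3 and 5, 35.4% as rises and 34% as falls. The KO step and the WT step of mice 2, 3 and 5 were both called in the same direction for 5249 genes, and in opposite directions for 386 that fell in KO and rose in WT and 196 that rose in KO and fell in WT. The difference between the steps, tested as an interaction with the animal as a block, was called for 3025 of 12117 genes (25%), of which 1447 were higher (11.9%) and 1578 lower (13%) in KO. With WT mice 2, 3 and 5 it was called for 5420 of 12126 genes (44.7%), 21.3% higher and 23.4% lower in KO. Both tests called 2785 genes in the same direction.

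Few differences were called in the G2 and mitosis list. The spread was wide for genes such as Mki67, so few calls do not show that the steps were equal. The median difference of the list was -0.46 with WT mice 2, 3 and 5 and all KO mice. Mki67 in WT was 387, 10.0, 12.0, 193 and 6.56 CPM at 12 h and 537, 876, 923, 509 and 752 CPM at 24 h, and its step did not pass the test of the difference (0.83 ± 1.58, adjusted p = 0.73 and, with WT mice 2, 3 and 5, -1.32, adjusted p = 0.267). Of the 56 genes of the G2 and mitosis list, 4 were called higher and none lower in KO with all mice, against 11.9% and 13% of all genes. With WT mice 2, 3 and 5, 4 were called higher and 1 lower, against 21.3% and 23.4%. Cenpa was among the higher, with 109, 36.2, 34.1, 75.6 and 32.9 and then 158, 105, 125, 130.2 and 103 CPM in WT and a difference of 1.02 ± 0.23 (SE, adjusted p = 0.0108), and 0.57 (adjusted p = 0.00126) with WT mice 2, 3 and 5. Of the 50 genes of the S phase list, 5 were higher and 5 lower in KO with all mice, and 5 higher and 16 lower with WT mice 2, 3 and 5. Mcm3 was lower in both fits (-0.75 ± 0.17, adjusted p = 0.00915, and -0.97, adjusted p = 0.00118 with WT mice 2, 3 and 5).

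Early genes had lower steps in KO. With all mice 20 of 28 immediate early factors, 11 of 17 NF-kB genes and 10 of 18 feedback genes had a lower step in KO and none a higher one. Over all genes tested 13% were lower and 11.9% higher. With WT mice 2, 3 and 5 the lower steps were 23, 12 and 14 and each list had 1 higher. The shares over all genes were then 23.4% lower and 21.3% higher. Myc was 266, 617, 877, 527 and 534 CPM at 12 h and 453, 749.5, 643, 629 and 658 CPM at 24 h in WT. The WT mean of 564 ± 219 CPM at 12 h stands beside 1227 ± 28.9 CPM for KO, and that of 627 ± 108 CPM at 24 h beside 649.7 ± 24.0 CPM. The difference of the steps was -1.14 ± 0.18 (SE, adjusted p = 0.0022) and -0.99 (adjusted p = 6.14e-04) with WT mice 2, 3 and 5. Nr4a3 fell in KO (-0.66 ± 0.069) and rose in WT (0.59 ± 0.11, adjusted p = 0.00601), a difference of -1.24 ± 0.14 (SE, adjusted p = 0.00112), and -1.31 (adjusted p = 2.10e-04) with WT mice 2, 3 and 5. Spry1 fell in both (-1.0 ± 0.22, adjusted p = 0.0113 in WT), by more in KO (-1.23 ± 0.24, adjusted p = 0.00559, and -0.94, adjusted p = 4.34e-04 with WT mice 2, 3 and 5).

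Effector genes gave further differences. Tbx21 was 10.6, 56.0, 64.9, 55.5 and 39.4 CPM at 12 h and 80.5, 175, 149.7, 168 and 144 CPM at 24 h in WT, where it rose by 1.84 ± 0.24 (SE, adjusted p = 0.00267), and the difference was -1.65 ± 0.25 (SE, adjusted p = 0.00218), and -1.43 (adjusted p = 1.45e-04) with WT mice 2, 3 and 5. Irf8 rose in both, by 1.42 ± 0.12 (SE, adjusted p = 0.00146) in WT, a difference of -1.17 ± 0.13 (SE, adjusted p = 0.00112), and -1.11 (adjusted p = 1.18e-04) with WT mice 2, 3 and 5. Ifng in WT was 17.2, 235, 152, 123 and 221 CPM and then 112, 366, 421, 455 and 431 CPM, a rise of 1.52 ± 0.30 (SE, adjusted p = 0.00819), against no call in KO, and the difference was -1.91 ± 0.39 (SE, adjusted p = 0.00694), and -1.46 (adjusted p = 0.0112) with WT mice 2, 3 and 5. Gzmb rose in both genotypes, with a difference that was not called (-0.76 ± 0.64, adjusted p = 0.411, and -0.0014, adjusted p = 0.997 with WT mice 2, 3 and 5). Lag3 fell in KO and rose in WT (0.74 ± 0.10, adjusted p = 0.00273), a difference of -1.32 ± 0.11 (SE, adjusted p = 4.26e-04), and -1.26 (adjusted p = 6.69e-05) with WT mice 2, 3 and 5. Ctla4 rose in both, more so in KO (0.85 ± 0.23, adjusted p = 0.0228), a call that was lost with WT mice 2, 3 and 5 (0.63, adjusted p = 0.0634).

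Genes chosen by the smallest p of the difference included Larp1, which binds mRNAs of ribosomal proteins, with 889.5, 961, 909, 948 and 1009.9 CPM at 12 h and 739.5, 766, 775, 827 and 762 CPM at 24 h in KO and 245, 366, 524, 337 and 316 and then 493, 809, 747, 655 and 651 CPM in WT, a difference of -1.21 ± 0.12 (SE, adjusted p = 7.15e-04), and -1.21 (adjusted p = 2.10e-04) with WT mice 2, 3 and 5. Hivep3, a zinc finger factor, Zbtb7a, a transcriptional repressor, and Ptprs, a receptor phosphatase, also had lower steps in KO (-1.25 ± 0.12, adjusted p = 7.15e-04, -0.91 ± 0.090, adjusted p = 7.15e-04 and -0.79 ± 0.066, adjusted p = 4.26e-04). Higher in KO were Tnfaip8l1 (1.19 ± 0.10, adjusted p = 4.26e-04), Narf (1.29 ± 0.16, adjusted p = 0.00145), Msmo1, a sterol synthesis enzyme (0.70 ± 0.089, adjusted p = 0.00146), Pnrc2, a cofactor of mRNA decay (0.71 ± 0.084, adjusted p = 0.00142), and Atp6v1d, a subunit of the proton pump of lysosomes (0.67 ± 0.081, adjusted p = 0.00142). With WT mice 2, 3 and 5 the differences of Hivep3, Zbtb7a and Ptprs were -1.19, -0.91 and -0.86. Those of Tnfaip8l1, Narf, Msmo1, Pnrc2 and Atp6v1d were 1.14, 1.03, 0.71, 0.68 and 0.63. These genes and Larp1 were chosen only among genes called in both fits in the same direction, so their calls were fixed by the choice. Oxidative phosphorylation, cytosolic ribosomal protein and proteasome genes had higher steps in KO for 39 of 71, 10 of 53 and 3 of 31 members with all mice, against 11.9% of all genes, and for 53, 39 and 26 members with WT mice 2, 3 and 5, against 21.3%. Lower steps numbered 1, 0 and 1 and then 4, 1 and 1, so the counts for ribosomal protein and proteasome genes rest on leaving out WT mice 1 and 4.

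The differences varied with properties of the transcripts. Across 12110 genes the difference of the steps had a Spearman correlation of -0.31 with GC content and -0.23 with transcript length, over genes that are not independent replicates, and of -0.39 and -0.28 with WT mice 2, 3 and 5. With all mice, genes with a higher step in KO had a median GC content of 45.2% and a median length of 2833 nt, and those with a lower step 53.5% and 4426 nt, against 49.8% and 3351 nt over all genes tested. For the KO step itself the correlations were -0.0029 and -0.048, and for the WT step of mice 2, 3 and 5 they were 0.25 and 0.16. The part of these properties in the differences between genotypes was not tested.

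**Figure D5:**
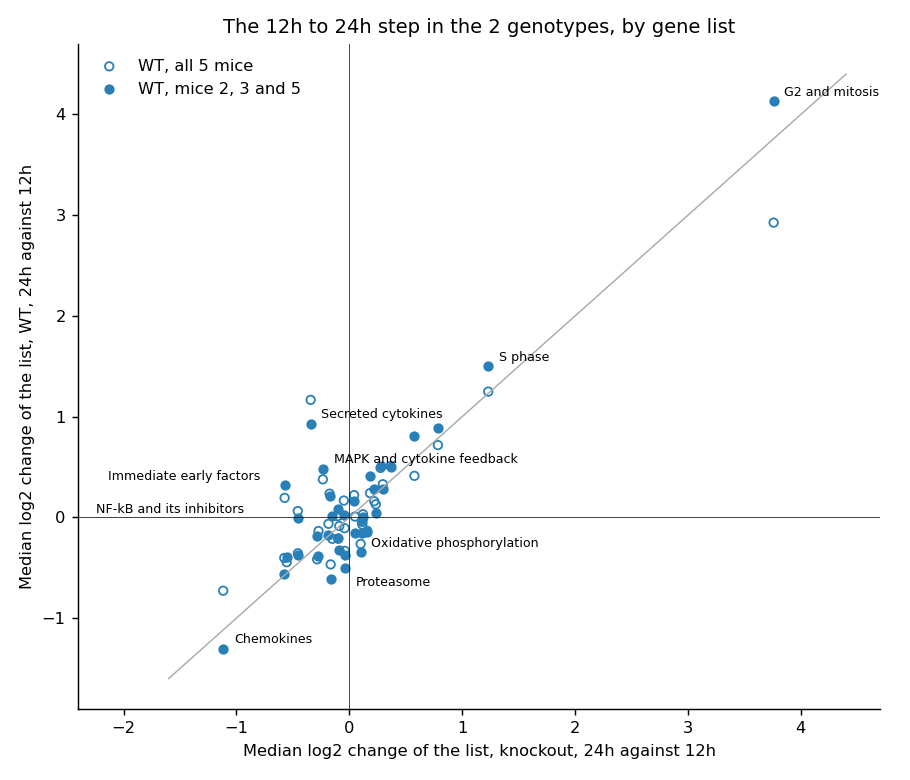
Median log2 change of each of the 37 gene lists in KO (horizontal axis) and in WT (vertical axis) from 12 h to 24 h, with open circles for all 5 WT mice and filled circles for WT mice 2, 3 and 5; the grey line marks equal medians. The G2 and mitosis list lies at 3.76 in KO (4.19 without KO mouse 5) and at 4.13 in WT mice 2, 3 and 5. Secreted cytokines lie at -0.34 (0.0093 without KO mouse 5) and 0.93.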

How the data were processed

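Per the labels, each library is RNA of CD8+ T cells of 1 mouse at 1 time. The authors deposited raw counts per gene. Reads were handled with CASAVA 1.8.2, STAR 2.4 and featureCounts 1.4.6 on GRCm38, per the submitters' processing notes; the strand setting, annotation and treatment of multimapping reads are not given in the sources used here. Counts of the 10 KO libraries were tested with edgeR 4.0.16 (R 4.3.3): filterByExpr, TMM scaling, robust quasi-likelihood F tests with the mouse as a block, Benjamini-Hochberg adjustment over all 11629 genes. The mouse numbers come from the labels; deviations from group means correlated within mice 1 to 4 by 0.28 to 0.41 and in mouse 5 by -0.0017. The WT step and the interaction were fitted alike, with 10 and 20 libraries. DESeq2 1.42.0, other scalings, filters, sample sets and left-out mice were alternatives. On simulated counts for the KO step over 11629 genes, 95 of 99 genes changed by 1 log2 unit and 100 of 100 changed by 2 were recovered, with 11 false calls. Unlike these data, the simulation changed few genes, used 1 set dispersion and held no mouse that stood apart. Its figures check the fit and are not error rates of the calls above. Genes named are members of 37 lists with the smallest p, the highest level or a call against the list's median, and the 15 largest changes per direction of at least 20 CPM. Added to these are the genes with the smallest p for the genotype difference among those called in both fits. The text names a subset. Members and lists were chosen with earlier results of these data known. The deleted gene is not reported here. Matches of the other motifs searched (AP-1, E-box, SRE, HRE) are not shown.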

Additional observations from a re-analysis of the deposited data

Results flagged for a closer look

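For each gene named, the 5 libraries of KO at 12 h and the 5 at 24 h were searched for a library far from the rest, by Dixon's test, which flags about 1 in 20 groups by chance. Of 400 such groups 43 had one, and 29 of these were the 12 h library of mouse 5, always as the highest value. Their levels there, in CPM, were Mki67 119.5, Ccna2 46.6, Plk1 16.1, Birc5 24.2, Top2a 231, Ube2c 21.3, Kif2c 11.3, Nusap1 10.8, Hmmr 11.7, Iqgap3 2.70, Pclaf 30.8, Kif14 4.95, Cdca3 11.0, E2f8 16.1, Ckap2l 12.3, Mcm3 614, Rrm1 275, Rrm2 85.0, Ccnd1 2.74, Nfkb1 1628, Cxcl9 39.7, Tnfrsf4 61.4, Ifit3 12.7, Irf7 25.7, Slc43a3 20.3, Fancd2 18.9, Ezh2 197, Hmgb2 18.2 and Lmnb1 177. The other 14 were spread over 5 libraries. At 24 h they were Ifit2 24.0, Srxn1 13.6 and Bach1 17.8 CPM in mouse 1, Pdcd1 112, Tnfrsf9 413 and Slamf1 69.0 CPM in mouse 3, Myc 691, Rps24 271 and Narf 18.9 CPM in mouse 4 and E2f8 98.6, Ncl 5674, Slc1a5 552 and Hspa5 1175 CPM in mouse 5. At 12 h the value was Nr4a1 463 CPM in mouse 3.

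For 64 of 200 genes named, the step differed between KO and WT with all mice by the interaction test of edgeR. Over all 12117 genes tested the share was 25%. The genes chosen for the difference itself were called by that choice and add to the count of 64. Values are the log2 change in KO minus that in WT. In the cell cycle, nucleotide and G1 genes they were Cenpa 1.02, Smc4 0.81, Bub3 0.41, Mcm3 -0.75, Slbp 0.40, Impdh1 -0.98, Cad -1.27, Cdkn2d 1.07 and Cdk6 -0.55. In early, NF-kB and feedback genes they were Egr2 -0.77, Nr4a1 -0.85, Myc -1.14, Fosl1 -1.01, Fosl2 -0.95, Nr4a3 -1.24, Jund -0.70, Tnfaip3 -0.67, Rel -0.45, Rela -0.77, Nfkb1 -0.89, Spry1 -1.23 and Dusp2 -0.38. In cytokines, receptors and transcription factors they were Ltb -0.66, Ifng -1.91, Lta -0.69, Lag3 -1.32, Tox2 -1.63, Ctla4 0.85, Il6ra -1.05, Il2ra -0.52, Il2rb -0.64, Ikzf3 -0.38, Tbx21 -1.65, Irf8 -1.17 and Runx3 -0.90. In naive, TCR, interferon and MHC genes they were Ets1 -0.47, Zap70 -0.63, Fyn -0.52, Cblb -1.07, Irf7 -0.96 and H2-D1 -0.69. In metabolic, stress and survival genes they were Uqcr10 0.42, Psat1 0.46, Ppp1r15a -0.59, Oat 0.60, Slc7a1 -0.86, Slc7a5 -0.81, Fasn -1.13, Bcl2 -0.64, Gpx4 0.86, Glrx 0.63 and Srxn1 -1.06. In the genes chosen for the difference itself they were Tnfaip8l1 1.19, Pnrc2 0.71, Atp6v1d 0.67, Narf 1.29, Msmo1 0.70, Ptprs -0.79, Hivep3 -1.25, Zbtb7a -0.91 and Larp1 -1.21, and in genes chosen after their values were seen Kdm6b -1.12, Zfp36l1 -0.89 and Kcna3 -0.96.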

How the results depend on the processing

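DESeq2 size factors, library totals, DESeq2's Wald test, all genes with at least 1 count, the 25 KO libraries, the fit with no replicate block (7778 genes) and leaving out each mouse (6996 to 8268, rises 3511 to 4163, falls 3485 to 4105; at 2-fold 1468 to 1644, 946 to 1105 and 519 to 545) kept the KO count within 1.5 times of 7818 genes. With all 50 libraries and no replicate block, whose common dispersion was 0.21 against 0.0076, it was 1331 (744 rose, 587 fell; at 2-fold 767, 514 and 253), 1290 of them called alike by the 10 libraries; 109 of 200 named genes then lost their call. No KO change of a named gene turned direction under these alternatives. Of 74 counts of list members that rose or fell, 26 moved by over 1.5 times with the 25 KO libraries, where 15 named genes lost their call, 67 with all 50 libraries and 0 to 7 under each other alternative. The genotype difference of Mki67, not called in either fit, turned from 0.83 to -1.32 without WT mice 1 and 4; the 11 genotype differences run under all alternatives kept their direction. Mki67 was 4.51 with no replicate block. The count that differed between genotypes was 1406 with no replicate block (664 higher, 742 lower), 5420 without WT mice 1 and 4 (2583, 2837) and 1949 to 3483 (857 to 1736, 1092 to 1747) when 1 animal was left out, lowest without KO mouse 5. The WT count was 3157 with no replicate block (1645 rose, 1512 fell), 8073 without WT mice 1 and 4 (4115, 3958) and 2923 to 5826 (1597 to 2897, 1320 to 2929) leaving out 1 mouse, lowest without mouse 5. The causes were not tested. Depth limits genes under about 1 CPM.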

Other observations

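A further 12 genes, chosen after their values were seen and belonging to none of the groups described above, moved in all 5 mice. Among genes of DNA repair, Fancd2, of the crosslink repair pathway, had 5.09, 5.93, 4.36, 6.15 and 18.9 CPM at 12 h and 126, 116, 122, 115 and 118 CPM at 24 h, a change of 4.04 ± 0.41 (SE, adjusted p = 0.00105), and Blm, a helicase of recombination, changed by 1.64 ± 0.092 (SE, adjusted p = 2.04e-06). Chromatin and nuclear genes rose too: Ezh2, the methyltransferase of Polycomb, had 146, 152, 157, 159 and 197 CPM at 12 h and 443, 441, 446, 413 and 421 CPM at 24 h, a change of 1.43 ± 0.074 (SE, adjusted p = 6.92e-07), while Hmgb2, a DNA-bending protein, and Lmnb1, lamin B1, changed by 3.17 ± 0.18 (SE, adjusted p = 3.24e-05) and 1.67 ± 0.13 (SE, adjusted p = 8.70e-05). Mouse 5 was the highest of the 12 h libraries for all 5 of these genes. Lgals1, the secreted lectin galectin 1, had 20.7, 9.71, 10.9, 11.8 and 25 CPM at 12 h and 108, 80.8, 88.6, 100.4 and 109.6 CPM at 24 h, a change of 2.71 ± 0.19 (SE, adjusted p = 1.10e-04).

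The genes that fell included a pair of histone demethylases. Kdm6b, which removes a Polycomb mark, had 387, 413, 359, 384 and 393 CPM at 12 h and 133, 135, 123, 152 and 141 CPM at 24 h, a change of -1.49 ± 0.045 (SE, adjusted p = 9.96e-09), and Kdm5b changed by -1.43 ± 0.076 (SE, adjusted p = 3.69e-07). Zfp36l1, which destabilises mRNAs with AU-rich elements, had 332, 421, 376, 373 and 266 CPM at 12 h and 119, 139, 114, 139 and 121 CPM at 24 h, a change of -1.46 ± 0.074 (SE, adjusted p = 7.18e-07). Rgs16, which dampens G protein signals from chemokine receptors, changed by -1.38 ± 0.054 (SE, adjusted p = 3.08e-08), Bach1, a haem-regulated repressor, by -1.45 ± 0.055 (SE, adjusted p = 2.68e-08), and Kcna3, the potassium channel Kv1.3, by -1.43 ± 0.097 (SE, adjusted p = 4.47e-06). For each of these 6 genes every value at 24 h lay below every value at 12 h. The groups did not overlap for 52.7% of all genes tested, in either direction.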
